A study of Mus musculus with 8 samples.

Results

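The sphingosine-1-phosphate receptors are the 5 genes S1pr1, S1pr2, S1pr3, S1pr4 and S1pr5, taken by symbol from a table of 45777 genes. All 5 had a row in the table. RNA sequencing of mouse neural stem cells from the subventricular zone (SVZ-NSCs), a germinal region beside the lateral ventricle, gave their counts. The labels describe 8 samples: 4 with the genotype WT, called control in their titles, and 4 with the genotype S1pr1 deletion, called S1PR1-deficient. Within each genotype, 2 samples received high-density lipoprotein labelled ApoM-HDL and 2 received ApoM+HDL, so all 8 were exposed to lipoprotein and none was untreated. Apolipoprotein M (ApoM) is the lipoprotein component that binds sphingosine-1-phosphate. For the allele, the driver of the deletion, the age of the mice, and the dose and duration of the treatment, the sources used here give nothing. Whether replicates came from separate cultures or animals is not given either, so p-values measure only the spread between these libraries.

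The library columns carry the 2-letter codes CH, CV, GH and GV, each with a number 1 or 2, and the labels hold none of these codes. The first letter was read as genotype. C is the initial of the control titles and of no other title, and G was taken for S1PR1-deficient by elimination alone. The second letter could not be tied to a lipoprotein preparation, so H and V are given as codes, with no preparation named. Every comparison below is therefore between libraries that carry a code. A statement about genotype holds only as far as this reading of the first letter does.

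Sphingosine-1-phosphate is a lysophospholipid that signals outside the cell through these 5 G-protein-coupled receptors. S1pr1 couples to inhibitory G proteins and is known for lymphocyte egress and endothelial barrier function. S1pr2 and S1pr3 couple to a broader set of G proteins. S1pr4 is best known from haematopoietic cells, and S1pr5 from oligodendrocytes and natural killer cells. In the brain, S1pr1 is abundant in astrocytes and neural progenitors.

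In GENCODE's annotation of GRCm38, each receptor has its whole coding sequence in a single exon. S1pr1 (gene 13609) lies on the minus strand at chr3:115710433-115715072, with 2 exons and a coding length of 1146 bases. S1pr2 (gene 14739) is at chr9:20962361-20976781 and S1pr5 (gene 94226) at chr9:21242912-21248443, both on the minus strand. S1pr3 (gene 13610) is on the plus strand at chr13:51408639-51422797. S1pr4 (gene 13611), on the minus strand at chr10:81497747-81500132, has 1 exon. S1pr3 shares 10048 bases with Gm32834, a long noncoding RNA gene on the opposite strand, and S1pr5 shares 731 bases with Gm48303. The library kit marks strand, but whether the counting used it is not given, so the few reads of S1pr3 and S1pr5 cannot be assigned to a strand with certainty.

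Upstream sequence was matched to RefSeq promoters (GRCm38.p6) for 4 of the 5 receptors, S1pr2 to S1pr5. The 250 bases before the start of 3 of them are shown because they hold the fewest and the most CG dinucleotides of the 4 matched (S1pr4 and S1pr5) and belong to the most abundant of the 4 (S1pr2). They run 5′ to 3′ on the gene's strand, and capitals mark each CG dinucleotide, which reads the same on the other strand. They lie at chr9:20976794-20977043 for S1pr2, chr9:21248444-21248693 for S1pr5 and chr10:81500138-81500387 for S1pr4.
S1pr2: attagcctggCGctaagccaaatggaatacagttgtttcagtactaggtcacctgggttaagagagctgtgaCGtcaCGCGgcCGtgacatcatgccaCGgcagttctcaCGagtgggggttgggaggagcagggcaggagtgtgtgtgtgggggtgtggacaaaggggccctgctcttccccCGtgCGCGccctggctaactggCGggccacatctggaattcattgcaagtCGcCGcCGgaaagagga
S1pr5: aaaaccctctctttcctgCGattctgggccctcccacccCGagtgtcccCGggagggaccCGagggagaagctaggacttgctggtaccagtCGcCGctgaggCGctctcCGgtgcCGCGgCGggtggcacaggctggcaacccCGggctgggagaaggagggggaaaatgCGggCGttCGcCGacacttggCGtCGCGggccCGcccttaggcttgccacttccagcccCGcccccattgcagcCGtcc
S1pr4: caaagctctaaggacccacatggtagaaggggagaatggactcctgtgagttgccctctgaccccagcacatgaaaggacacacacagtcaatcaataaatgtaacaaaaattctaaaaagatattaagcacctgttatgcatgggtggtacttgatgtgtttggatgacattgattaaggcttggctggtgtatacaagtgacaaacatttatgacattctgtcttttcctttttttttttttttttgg

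The S1pr2 stretch holds 14 CG dinucleotides, and 29.4% of the 32851 promoter stretches of this length hold at least as many. S1pr5 holds 22, a count reached by 14.8% of them, and S1pr3 holds 9, reached by 40.3%. S1pr4 holds 0, against a median of 6 over all promoters. The matched receptor with the most CG dinucleotides, S1pr5, was among those with few reads, as the levels show. S1pr1 had no matched promoter, so its CG count is not known here. The pattern is a description of these windows only.

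The libraries held between 39619305 and 45698186 reads assigned to genes. Libraries of the same code differed by 5.4 to 14.5 times the sampling noise, as chi-square per degree of freedom, so none was a copy of another. Rn7s1, a signal recognition particle RNA gene with a near-identical copy, took 1.57% to 1.86% of reads in the C libraries and 0.744% to 1.24% in the G libraries. All 10 neural stem cell and radial glia markers had reads, with a summed level of 6220 to 6300 CPM (the count scaled to the TMM-adjusted library size) in C and 5460 to 5870 in G. Of these markers, Gfap had only 0 to 38 reads. The microglial markers Aif1, Csf1r and Itgam were at 0 in all 8 libraries, and the summed level of the 6 microglial markers stayed at or below 0.3 CPM. All 6 endothelial markers had reads somewhere, with a summed level of 2.54 to 4.28 in C and 2.0 to 2.91 in G. The endothelial genes Cdh5 and Cldn5 had reads in 1 library each, 8 in GV1 and 2 in CV1. In bulk RNA, fewer cells of a type and less RNA per cell cannot be told apart.

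S1pr1, the gene named in the genotype label, was not lower in the G libraries. It had 1016 reads in CH1, 1033 in CH2, 807 in CV1 and 703 in CV2, and 970 in GH1, 848 in GH2, 1008 in GV1 and 940 in GV2. The ranges overlap, and the lowest S1pr1 value of all belongs to a C library. In CPM, S1pr1 was 21.3 ± 4.03 in C (SD, n = 4) and 22.3 ± 0.828 in G (SD, n = 4). The fitted difference of G against C over both second letters was 0.08 on the log2 scale (SE 0.08), with a 95% interval from -0.10 to 0.25 (edgeR quasi-likelihood, adjusted p = 0.569). The counts are of the whole gene. Its coding sequence lies in 1 exon and makes up 1146 of the 3029 bases used as its length. Whether a part of the gene was missing from the RNA was not tested. The S1pr1 counts give no support to the reading of G as deficient.

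S1pr1 was the most abundant of the 5 receptors in every library. Levels between genes are given as RPKM, which is CPM divided by kilobases of exon, using the exon bases inside RefSeq's gene span. On this scale S1pr1 averaged 7.2 ± 0.904 over the 8 libraries (SD, n = 8) and S1pr2 averaged 2.61 ± 0.403 (SD, n = 8). The lowest S1pr1 library, at 5.29, was above the highest S1pr2 library, at 3.14. The S1pr2 level depends on the length used, and over the longer GENCODE transcript its mean is 1.14, still below S1pr1. S1pr1 stood at percentile 55.7 and S1pr2 at percentile 40.1 of mean CPM among the 17644 genes tested.

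The other receptors were near the limit of detection. S1pr3 had 4 to 15 reads per library with a median of 7.5, and averaged 0.0446 ± 0.0221 RPKM (SD, n = 8). S1pr5 had 0 to 11 reads with a median of 5, and averaged 0.0475 ± 0.0376 (SD, n = 8). The levels of S1pr3 and S1pr5 overlap and cannot be ordered. S1pr4 was at 0 in 7 of 8 libraries and had 8 reads in CV1. A count of 0 allows up to 3 reads, which is between 0.0662 and 0.0771 CPM in these libraries, for counting error only. S1pr3 passed the filter on low counts, largely through the CH libraries with 13 and 15 reads, and S1pr4 and S1pr5 did not. So 3 of the 5 receptors were tested.

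**Figure D1:**
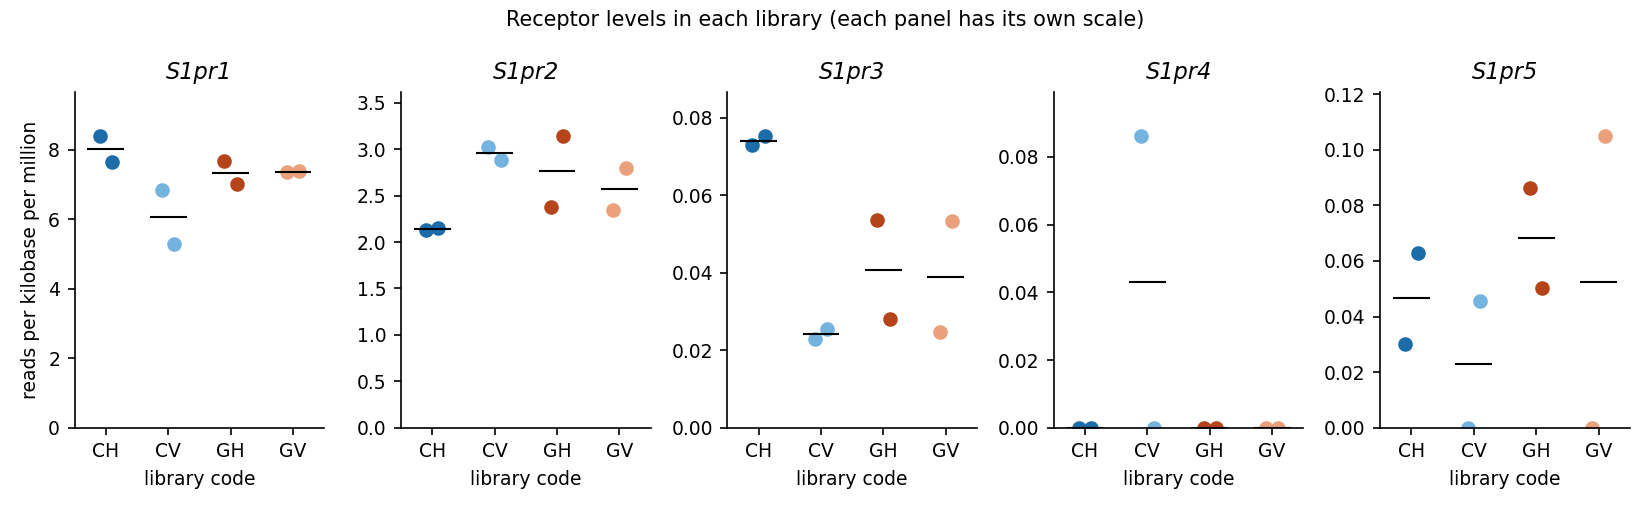
Level of each receptor in RPKM (vertical axis, a separate scale for each panel) by library code; points are libraries and lines are the means of the 2 libraries of a code. S1pr1 and S1pr2 are above 2 in every library, while S1pr3, S1pr4 and S1pr5 stay at or below 0.105.

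Set beside 11 related receptors for lysophosphatidic acid, cannabinoids or orphan relatives, S1pr1 was among the more abundant. Lpar6, a receptor for lysophosphatidic acid, averaged 10.7 ± 1.64 RPKM (SD, n = 8), and its lowest library, at 8.7, was above the highest S1pr1 library, at 8.4. That order rests on the length, since over whole GENCODE transcripts Lpar6 averages 4.88 and S1pr1 7.16. S1pr2 and the cannabinoid receptor Cnr1, at 2.35 ± 0.41 (SD, n = 8), overlapped. Gpr3 averaged 1.61 ± 0.386 (SD, n = 8). Cnr2 was at 0 in all 8 libraries.

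**Figure D2:**
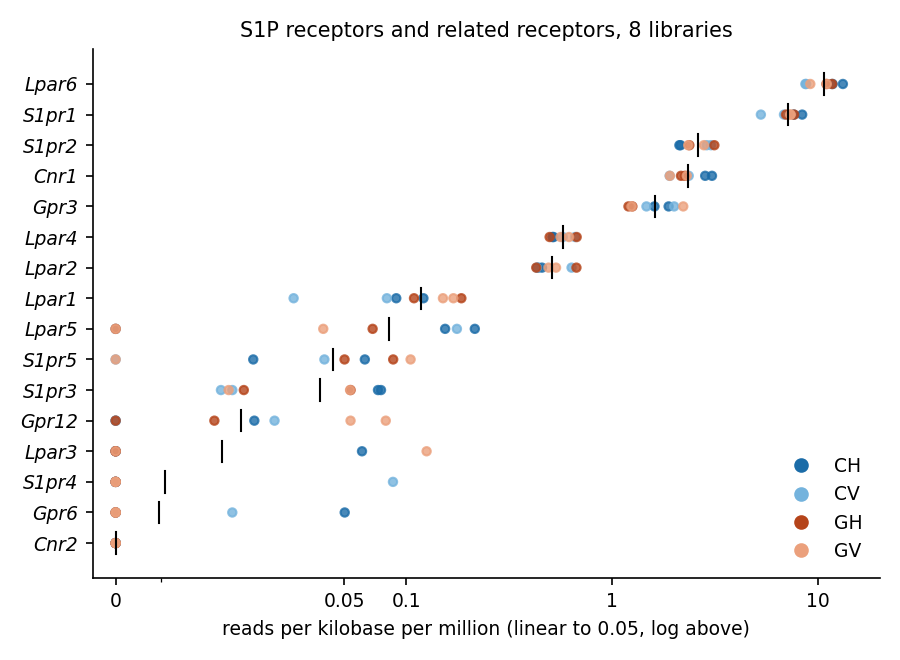
RPKM (horizontal axis, linear to 0.05 and logarithmic above) of the 5 receptors and 11 related receptors; points are the 8 libraries coloured by code and black lines are their means. S1pr1 averages 7.2 and S1pr2 averages 2.61, and S1pr3, S1pr4 and S1pr5 lie at the low end.

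The first comparison asks how the G libraries differ from the C libraries. Over both second letters, 0 of the 3 receptors tested passed an adjusted p of 0.05 in edgeR, against 19.2% of all 17644 genes. At an unadjusted p under 0.05 the count was also 0, beside 5751 of the 17644 genes, and DESeq2 called 0. S1pr2 had 238 reads in CH1, 269 in CH2, 330 in CV1, 355 in CV2, 278 in GH1, 352 in GH2, 298 in GV1 and 329 in GV2. In CPM S1pr2 was 7.14 ± 1.33 in C and 7.47 ± 1.06 in G (SD, n = 4 each), and the ranges overlap. The fitted difference for S1pr2 was 0.08 (SE 0.11) on the log2 scale, with a 95% interval from -0.16 to 0.32 (edgeR, adjusted p = 0.666). S1pr3 differed by -0.09 (SE 0.62, edgeR adjusted p = 0.938), and its interval from -1.45 to 1.26 is too wide to place it. For S1pr5, which failed the filter, edgeR without a filter gave 0.84 (SE 1.11, adjusted p = 0.831).

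Within the H libraries, edgeR called 0 of 3 receptors, against 1.81% of all genes, and DESeq2 called 0. At an unadjusted p under 0.05 there was 1 receptor, beside 2401 of the 17644 genes tested. S1pr1 was 24.3 ± 1.6 CPM in CH and 22.2 ± 1.43 in GH (SD, n = 2 each), a log2 difference of -0.13 (SE 0.11, edgeR adjusted p = 0.71). S1pr2 was 6 ± 0.0552 in CH and 7.73 ± 1.52 in GH (SD, n = 2 each). The S1pr2 difference of 0.37 (SE 0.16) did not pass after adjustment (edgeR adjusted p = 0.323). It was 0.55 without GH1 and 0.15 without GH2. The S1pr1 difference ranged from -0.20 (without GH1) to -0.06 (without CH1).

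Within the V libraries, edgeR called 0 of 3 receptors, against 25% of all genes, and DESeq2 called 0. At an unadjusted p under 0.05 there was 1 receptor, beside 6460 of the 17644 genes tested. S1pr1 was 18.4 ± 3.34 CPM in CV and 22.3 ± 0.099 in GV (SD, n = 2 each). These values do not overlap, which is common by chance with 2 libraries on each side. The log2 difference was 0.28 (SE 0.12), with a 95% interval from 0.03 to 0.53 (edgeR adjusted p = 0.0948). This value rests on the CV libraries: it was 0.48 without CV1 (edgeR adjusted p = 0.0193) and 0.11 without CV2 (adjusted p = 0.596). With no filter on low counts the S1pr1 difference was 0.31 (edgeR adjusted p = 0.0477). S1pr2 differed by -0.20 (SE 0.16, edgeR adjusted p = 0.386).

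Within the C libraries, H was compared with V. S1pr1 was higher in CH than in CV, at 25.4 and 23.2 CPM against 20.8 and 16. The 2 groups do not overlap, which is common by chance with 2 libraries on each side. The difference was 0.41 on the log2 scale (SE 0.12), a fold of 1.32 (edgeR adjusted p = 0.0433), and S1pr1 was the 1 receptor of 3 called, against 10.7% of all genes. DESeq2 also called 1. The S1pr1 call is not stable to single libraries. Without CV2 the difference was 0.23 (edgeR adjusted p = 0.314), without CH1 0.34 (adjusted p = 0.167) and without CH2 0.47 (adjusted p = 0.128). It was also lost without GH1 (adjusted p = 0.0656) and without GH2 (adjusted p = 0.0687), where the S1pr1 difference stayed at 0.41 and 0.40.

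The S1pr2 difference had the opposite sign in the same comparison. S1pr2 was 5.96 and 6.04 CPM in CH and 8.48 and 8.09 in CV, with no overlap, which carries little weight with 2 libraries on each side. The difference of -0.47 (SE 0.16), a fold of 0.724, did not pass after adjustment (edgeR adjusted p = 0.0779). S1pr3 had 13 and 15 reads in CH and 4 and 5 in CV, and its difference of 1.58 (SE 0.85) was not called (edgeR adjusted p = 0.273). Only the CH libraries had more than 10 S1pr3 reads, and S1pr3 had at most 10 in a G library. The filter's minimum count of 10 is scaled to library size. S1pr3 was thus tested largely through the code where it is high, and its difference here is not independent of the filter.

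Cell type markers also differed between CH and CV, in a comparison that called 10.7% of all genes. The summed level of the 8 oligodendrocyte lineage markers was 1430 to 1530 CPM in CH and 1930 to 1960 in CV. Most of it was Olig1 (883 and 805 in CH, 1176 and 1133 in CV) and Olig2 (496 and 495 in CH, 570 and 579 in CV). Of the 6 tested, 4 were lower in CH (66.7%). Pdgfra had the other sign and was not called (0.735, edgeR adjusted p = 0.184). Sox10 was at 0 in the C libraries, and Mog had reads only in CV2 among them, with 2. Of the 10 neural stem cell markers, 3 were lower in CH and 0 higher (30%). The summed endothelial level was 4.13 to 4.28 in CH and 2.54 to 2.94 in CV, with 0 of 4 tested genes called by edgeR. Acta2, a smooth muscle actin in the mural list, was 4.02-fold higher in CH (edgeR adjusted p = 0.00269). The summed level of the 4 mural markers was 135 to 155 in CH and 208 to 215 in CV, and nearly all of it was Cspg4 (130 to 146 in CH, 206 to 214 in CV), which the oligodendrocyte list also holds. Of the other mural markers, Rgs5 was at or below 0.129 CPM in these libraries and Pdgfrb at 0. Their part in the receptor differences was not tested.

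In the G libraries the second letter made no called difference to the receptors. There 0 of 3 receptors were called by edgeR, against 1.28% of all genes, and 0 by DESeq2. At an unadjusted p under 0.05 there were 0 receptors, beside 2607 of the 17644 genes tested. S1pr1 was 22.2 ± 1.43 CPM in GH and 22.3 ± 0.099 in GV (SD, n = 2 each). The log2 difference was -0.005 (SE 0.11), with a 95% interval from -0.25 to 0.24 (edgeR adjusted p = 0.993). S1pr2 was 7.73 ± 1.52 in GH and 7.2 ± 0.89 in GV (SD, n = 2 each), a difference of 0.10 (SE 0.16, edgeR adjusted p = 0.83).

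Whether the H against V difference itself differed between G and C was tested as an interaction. In that test edgeR called 0 of 3 receptors, against 7.35% of all genes, and DESeq2 called 0. At an unadjusted p under 0.05 there were 2 receptors, beside 4285 of the 17644 genes tested. The interaction was -0.41 (SE 0.16, edgeR adjusted p = 0.14) for S1pr1 and 0.57 (SE 0.22, edgeR adjusted p = 0.132) for S1pr2. For S1pr1 it was -0.23 without CV2 and -0.61 without CV1 (edgeR adjusted p = 0.0509), and for S1pr2 it was 0.35 without GH2 and 0.74 without GH1. A different response to the second letter in the G libraries was therefore not established for either receptor. The comparisons within C, within G, within H and within V share libraries and are not independent of each other.

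**Figure D3:**
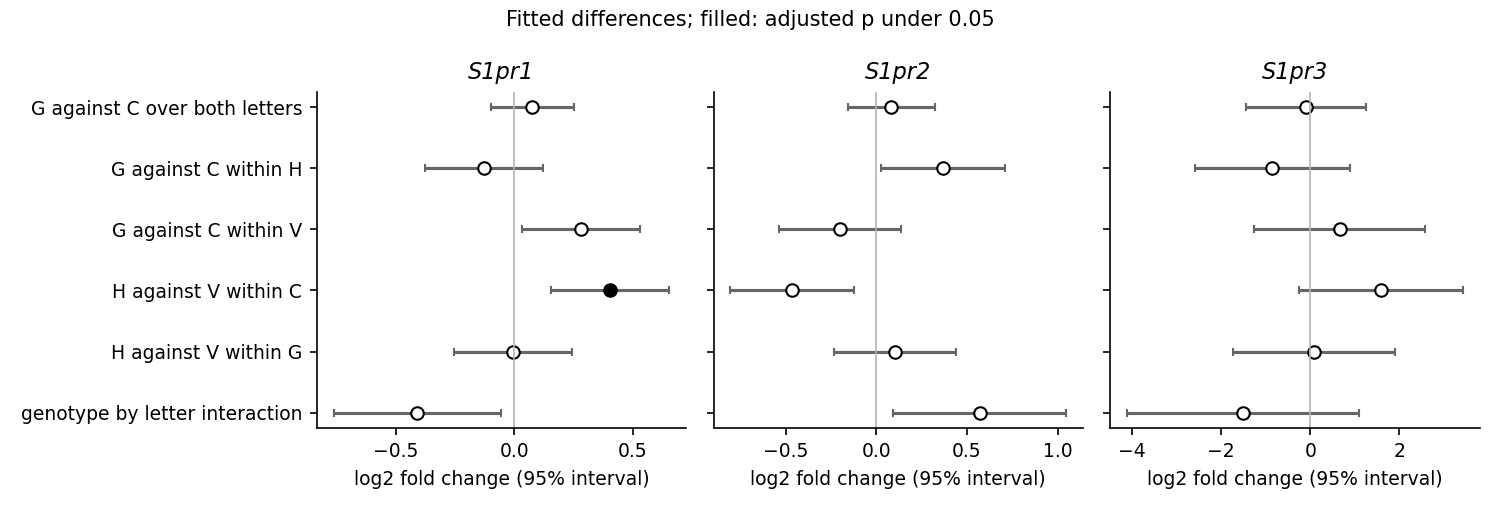
Fitted log2 fold changes of S1pr1, S1pr2 and S1pr3 with 95% intervals (horizontal axes, 1 scale per panel) in 6 comparisons between library codes; a filled point has an adjusted p under 0.05. The 1 filled point is S1pr1 for H against V within C, at 0.41, and S1pr2 lies on the other side of 0 there, at -0.47.

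The balance of the 2 abundant receptors needs no scaling between libraries. There were 4.27 S1pr1 reads per S1pr2 read in CH1 and 3.84 in CH2, against 2.45 in CV1 and 1.98 in CV2. The ratio was 3.49 in GH1, 2.41 in GH2, 3.38 in GV1 and 2.86 in GV2. CH is thus high and CV low among the C libraries, and the 4 G values lie below both CH values and above the lowest CV value. The mean log2 ratio was 1.59 ± 0.247 in G and 1.58 ± 0.527 in C (SD, n = 4 each), a difference of 0.008 (exact permutation test, two-sided, p = 1). Over both first letters, H was 0.39 above V (exact permutation test, two-sided, p = 0.171, adjusted over the 2 tests 0.342). Both permutation tests rearranged all 8 libraries in 70 ways, without keeping the other letter fixed. The smallest p such a test allows is 0.0286. S1pr1 made up 64.1% to 79% of the summed receptor level per kilobase, S1pr2 20% to 35%, and the other 3 together 0.254% to 1.53%.

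**Figure D4:**
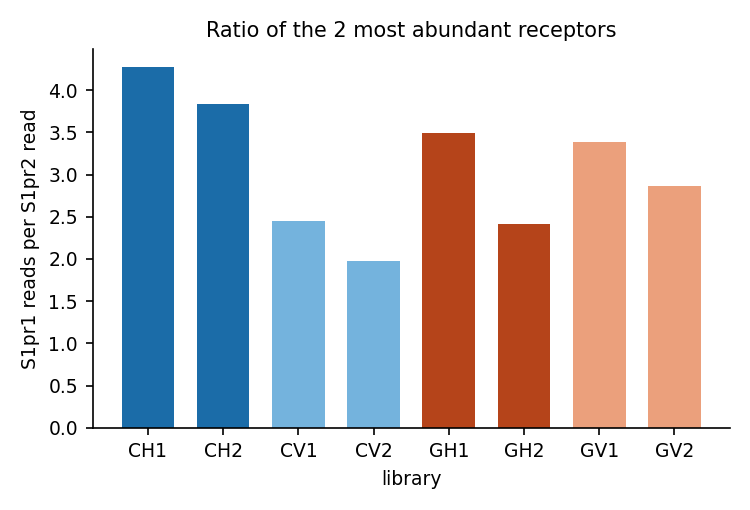
S1pr1 reads per S1pr2 read (vertical axis, from 0) in each of the 8 libraries, coloured by 2-letter code. CH1 and CH2 are highest, at 4.27 and 3.84, and CV2 is lowest, at 1.98.

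Across the 8 libraries, log2 CPM of S1pr1 and S1pr2 had a Pearson r of -0.63, and S1pr1 and S1pr3 of 0.67. These describe points that share library and depth. The genes whose pattern was most like that of S1pr1 were Ptpn12 (r = 0.976), Apol8 (r = 0.975) and Tnfaip6 (r = 0.974). For S1pr2 they were Gm38523 (r = 0.951), Lsm10 (r = 0.946) and Gcdh (r = 0.945), of which Gm38523 averaged only 0.111 CPM. With 8 libraries such values are reached by many genes: 70 genes had an r over 0.9 with S1pr1 and 18 with S1pr2. For S1pr3, whose reads are few, the most alike were Gm3417 (r = 0.982), Shh (r = 0.968) and Ctsl (r = 0.965), and 62 genes had an r over 0.9. Gm3417 averaged only 0.466 CPM and Shh 0.713.

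Some other genes of the pathway did differ between G and C. Of 26 listed genes that make, degrade, export or carry the ligand or act below the receptors, 24 were tested, 2 were higher in G, 4 were lower and 18 were not called. The share called was 25%, beside 19.2% of all genes, and the median difference was -0.035 on the log2 scale against -0.008 over all genes. Gnao1, an inhibitory G protein subunit typical of neural cells, fell by 0.66 on the log2 scale (SE 0.08, edgeR adjusted p = 0.000295). Gnao1 was 14.5 to 22.5 CPM in C and 9.7 to 13.3 in G, with no overlap. Gnai2, an inhibitory subunit through which S1pr1 signals, fell by 0.25 (SE 0.05, edgeR adjusted p = 0.00372), from 189 to 219 CPM in C to 169 to 185 in G. The other 2 that fell were Gna12, a G protein alpha subunit, by 0.20 (edgeR adjusted p = 0.0235), and Arrb2, an arrestin that binds activated receptors, by 0.25 (edgeR adjusted p = 0.0197). Values of both overlapped between C and G. Sgpp1, a phosphatase that removes the phosphate of the ligand, rose by 0.31 (SE 0.06, edgeR adjusted p = 0.00573), from 42.9 to 58.4 CPM in C to 59.5 to 70.6 in G. Gna13, the relative of Gna12, rose by 0.13 (edgeR adjusted p = 0.0283), and its values did not overlap, at 159 to 177 in C and 179 to 189 in G. How many of all genes do not overlap between C and G was not counted. Over 13 alternatives Gnao1 and Gnai2 kept their calls in all 13 and Sgpp1 in 12, lost with genotype alone (edgeR adjusted p = 0.0935). Gna12 and Gna13 each kept theirs in 6 and Arrb2 in 7. Each of these differences was larger within V than within H. The log2 values within H and within V were 0.12 and 0.50 for Sgpp1, -0.03 and -0.46 for Arrb2, and -0.07 and -0.32 for Gna12. They were 0.04 and 0.225 for Gna13, -0.16 and -0.345 for Gnai2, and -0.51 and -0.805 for Gnao1. Only Gnao1 was called within H, and the interaction was called for none of these genes. Without CH1 the list held 1 higher and 2 lower genes, and the same numbers came without CV1, CV2 or GH1. With genotype alone 0 were higher and 2 lower. Some cell type markers were also called in the same comparison. Of the 10 neural stem cell markers 2 were lower in G and 0 higher, a share of 20% beside 19.2% of all genes: Nes (-0.28, edgeR adjusted p = 0.00128) and Fabp7 (-0.31, adjusted p = 0.00227). Of 5 neuroblast markers tested, Tubb3 was lower (-0.38, edgeR adjusted p = 0.00983) and Cd24a higher (0.15, adjusted p = 0.0459). Of 4 endothelial markers tested, 1 was lower, Flt1 (-2.35, edgeR adjusted p = 0.0149). Of 3 mural markers tested, 1 was lower, Acta2 (-2.05, edgeR adjusted p = 0.000295), while Rgs5 (2.40, adjusted p = 0.0785) and Cspg4 (0.12, adjusted p = 0.14) had the other sign and the list's median was 0.12. The oligodendrocyte, ependymal and microglial lists held 0 called by edgeR. Their part in the pathway differences was not tested. The gene of the carrier itself, Apom, did not pass the filter, with 0 to 21 reads per library.

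Within C, 6 of the 24 tested pathway genes differed by the second letter, 2 higher and 4 lower in CH than in CV, a share of 25% beside 10.7% of all genes. Spns2, a transporter that exports sphingosine-1-phosphate, was lower by the most, at 3.68 and 4.17 CPM in CH and 6.89 and 5.92 in CV. The fitted Spns2 difference was -0.70 (SE 0.16, edgeR adjusted p = 0.0167). Of the 7 related receptors tested, 2 were called (28.6%), both higher in CH. None of these calls held in every alternative. Without CH2 or without CV1, edgeR called 0 of the pathway genes. Lpar6 was higher by 0.52 (SE 0.10, edgeR adjusted p = 0.00843) and Cnr1 by 0.47 (SE 0.13, edgeR adjusted p = 0.0361). Lpar6 lost its call without CH2, CV1 or CV2, and Cnr1 without CH1, CH2, CV2, GH1 or GH2. Within G, edgeR called 0 of the 24 pathway genes and 0 of the 7 related receptors. For G against C, 1 pathway gene was called within H, Gnao1, which was lower (-0.51, edgeR adjusted p = 0.0387), a share of 4.17% beside 1.81% of all genes. With the replicate block, or without any 1 of CH1, CH2, CV1, CV2, GH1 or GH2, edgeR called 0 pathway genes within H. Within V, 4 were higher and 7 lower, a share of 45.8% beside 25% of all genes. Without CV1 these were 2 and 3, without CV2 1 and 4, and without GV2 3 and 4. In the interaction 1 was called, Gnai3, an inhibitory subunit (-0.36, edgeR adjusted p = 0.0477), a share of 4.17% beside 7.35% of all genes. With the replicate block, or without any 1 of CH2, CV1, CV2, GH1, GH2 or GV2, the interaction held 0 pathway genes called by edgeR.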

How the data were processed

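Ribosome-depleted total RNA went into stranded libraries, according to the labels. StringTie 2.1.3b, HISAT2 2.1.0, Trimmomatic and bcl2fastq 2.20.0 are listed in the submitters' processing notes, with the builds GRCm38 and mm10. The authors deposited a read count for each of 45777 genes and 8 libraries, and those counts were used as deposited. Per the file headers, 16 further columns hold normalized values, and they were not used here. Columns were grouped by the first letter of the library code, as the report states.

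edgeR 4.0.16 (R 4.3.3) was fitted to all 8 libraries, with the 2-letter code as the only factor, TMM scaling, filterByExpr (minimum count 10) and quasi-likelihood tests. This left 17644 genes, over which p-values were adjusted by Benjamini-Hochberg, with a threshold of 0.05. Standard errors and 95% intervals come from the quasi-likelihood F values. The fit was tested on simulated data for G against C over both letters only. Those data had the same spread for all genes and no difference by the second letter, so the other comparisons were not tested in this way. Alternatives were DESeq2 1.42.0, RLE scaling, no filter, a replicate block, genotype alone and each library left out. Lengths are exon bases of the GENCODE transcript matched by RefSeq accession. All 5 receptors are described. Listed pathway genes and related receptors are named only if called (at most 10 by adjusted p in G against C over both letters), and the 3 most correlated genes are named for each tested receptor. The receptors and lists were chosen with earlier results of these data known, and the ratio of S1pr1 to S1pr2, its tests and the marker, Spns2, Lpar6, Cnr1, Cnr2, Apom and Gpr3 values were chosen after seeing the data.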

Additional observations from a re-analysis of the deposited data

Results flagged for a closer look

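S1pr4 had 8 reads in CV1 and 0 in the other C libraries, which put CV1 far from the rest of its group. S1pr4 was also at 0 in all 4 G libraries. Where the other 3 libraries are at 0, any read in the fourth sets it apart in this way, so the mark says no more than that 8 reads were counted. Of 9 sets of 4 libraries examined, this was the 1 that stood out. The usual rate at which chance marks a set, about 5%, does not apply to counts this sparse.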

How the results depend on the processing

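No called receptor difference changed sign under an alternative. The S1pr1 call for H against V within C was kept under DESeq2, RLE scaling, no filter and the replicate block, and lost without CH1, CH2, CV2, GH1 or GH2. S1pr1 for G against C within V gained a call with no filter and without CV1. For the other receptor comparisons the side of the threshold was the same in every alternative that gave a value. Where leaving a library out left a code with 1 library, that library is assumed to vary like the others.

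The number of genes called moved more. For G against C over both letters it was 3387, and 506 with genotype alone, and leaving out a library gave 1585 (without GH1) to 3391. Within H it was 320, with 567 under DESeq2, 552 with no filter, 203 with the replicate block and 45 (GH1) to 415 without a library. Within V it was 4408, and 1950 (CV2) to 4444 without a library. For H against V within C it was 1883, and 255 (CV2) to 2169 without a library. Within G it was 226, with 668 under DESeq2, 575 with no filter, 137 with the replicate block and 8 (GH2) to 843 (GV2) without a library. For the interaction it was 1296, with 2022 under DESeq2 and 56 (GH1) to 1450 without a library. The count fell by more than 1.5 times without CH1, CV2, GH1 or GH2 for G against C over both letters, without CV2 or GV1 within V, and without CH2, CV1, CV2, GH1 or GH2 for H against V within C. Same-numbered libraries did not deviate together (r from -0.046 to 0.01), so the number in the code does not show pairing. The causes were not tested. The length was an alternative chosen after seeing the data, and it moved only the S1pr2 mean level among the receptors, from 2.61 to 1.14. With 2 libraries per code, small differences are not detectable, and S1pr3, S1pr4 and S1pr5 are limited by their reads.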
